A study of Mus musculus with 10 samples.

Results

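Pdcd1 encodes PD-1, the receptor that anti-PD-1 antibodies block. It was taken from the feature table of 5 single-cell RNA libraries, where it is 1 of 31053 genes (ENSMUSG00000026285). In the GRCm38 assembly it is a protein-coding gene on the minus strand of chromosome 1, from 94038305 to 94052553, a span of 14249 bp with 1 annotated transcript of 5 exons. Its transcript was followed in 4 classes of T cells from mouse colorectal carcinoma, across treatment groups, across clone sizes and beside the other genes of the same cells.

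PD-1 sits on the surface of T cells that have met antigen, and it rises when the T cell receptor is engaged. When a ligand, PD-L1 (Cd274) or PD-L2 (Pdcd1lg2), binds it, its cytoplasmic tail recruits the phosphatase SHP-2 (Ptpn11), which dampens signals from the T cell receptor and from CD28. In tumours it is known from CD8 T cells under chronic stimulation, from follicular helper-like CD4 T cells and from activated regulatory T cells. An antibody that blocks the protein need not change the amount of its transcript, and only the transcript was measured here.

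The libraries hold tumour-infiltrating T cells of 3 groups. There were 2 untreated libraries, 1 library after treatment with Stellera chamaejasme (a medicinal plant, written S. chamaejasme below), and 2 libraries after S. chamaejasme plus anti-PD-1 therapy, called the combination. Each RNA library has a matched T cell receptor library from the same 5' Chromium preparation. Anti-PD-1 was not given alone in any group. The combination therefore differs from the untreated group by both agents, and it differs from the S. chamaejasme library by the antibody. The labels give no animal, strain, age, dose, plant preparation, antibody clone, sort or batch. They also do not say whether libraries of a group come from separate animals, so p-values measure the spread between these libraries, which may be technical. The untreated libraries are titled in another style than the other 3, and a batch that follows the untreated group cannot be told apart from treatment. The single S. chamaejasme library has no replicate, and every test on it assumes that it varies like the other groups.

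The 5 RNA libraries hold 22590 barcodes and 97967927 unique molecular identifiers (UMIs, each standing for 1 captured transcript), with 8763821 to 27759543 UMIs per library. After filters on genes, mitochondrial share and doublets, 20239 cells were kept, 2244 to 5044 per library, with a median of 3403.5 to 4905.5 UMIs per cell. The combination libraries were the deepest per cell. A clonotype was found for 73.9% to 90.9% of kept cells. Of 22337 barcode sequences, 251 occurred in more than 1 RNA library.

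Pdcd1 is a sparse transcript in these data. At least 1 UMI was found in 1649 kept cells, 8.15% of all, with 4145 UMIs in total. Most of those cells held few molecules: 795 had 1 UMI, 326 had 2, 376 had 3 to 5, 152 had more than 5, and the highest count was 19. Levels are therefore given in CPM, the number of Pdcd1 UMIs per 1000000 UMIs summed over all cells of a class in a library. In such a sum, fewer positive cells and fewer transcripts per positive cell cannot be told apart, so the share of cells with a UMI is given as well.

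Cells were put into classes by lineage transcripts, without use of Pdcd1. All classes needed a CD3 UMI. CD8 cells (3589) had Cd8a or Cd8b1 and none of Cd4, Foxp3 or Fcer1g. CD4 conventional cells (5753) had Cd4 and none of Cd8a, Cd8b1, Foxp3 or Fcer1g. Foxp3-positive cells (1261) had Foxp3, the factor that specifies regulatory T cells, and Fcer1g-positive cells (306) had at least 2 UMIs of Fcer1g, an adaptor of innate-like T cells. The other 9330 cells, 46.1%, lacked the UMIs for a class or held those of more than 1.

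The classes carried their markers. Cd3e was found in 96.6% of CD8, 97.3% of CD4 conventional, 96.4% of Foxp3-positive and 98.7% of Fcer1g-positive cells. Among Foxp3-positive cells, 74.5% had Ikzf2 (Helios) and 45.8% had Il2ra (CD25). Among Fcer1g-positive cells, 87.6% had Xcl1, 43.8% had Tyrobp and 19.0% had Trdc, the constant gene of the delta chain, so this class mixes several kinds of innate-like T cells.

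Foxp3-positive cells had the highest Pdcd1 level of the 4 classes in every library but untreated library 1, where 10 Fcer1g-positive cells summed to more. They were 6.23% of the kept cells and held 29.4% of all Pdcd1 UMIs. CD4 conventional cells, 28.4% of the kept cells, held 31.2%, and the cells in no class, 46.1%, held 29.4%. The Foxp3-positive level was 133 and 102 CPM in untreated libraries 1 and 2, 226 CPM in the S. chamaejasme library, and 274 and 207 CPM in combination libraries 1 and 2. In every library this exceeded the CD8 level and the CD4 conventional level.

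CD4 conventional cells varied more between libraries than CD8 cells. Their levels were 7.18 and 20.3 CPM in the untreated libraries, 48.5 CPM in the S. chamaejasme library, and then 51.6 and 61.0 CPM in the combination libraries. CD8 cells were at 19.3 and 22.0 CPM, 13.6 CPM, and 19.9 and 29.5 CPM in the same order. The order of these 2 classes was thus not the same in every library: CD8 cells were above CD4 conventional cells in both untreated libraries and below them in the other 3. Fcer1g-positive cells had 53.9 CPM in untreated library 2, 6.70 CPM in the S. chamaejasme library, and 23.1 and 39.3 CPM in the combination libraries. In untreated library 1 the class had only 10 cells (214 CPM) and was left out of the tests.

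**Figure D1:**
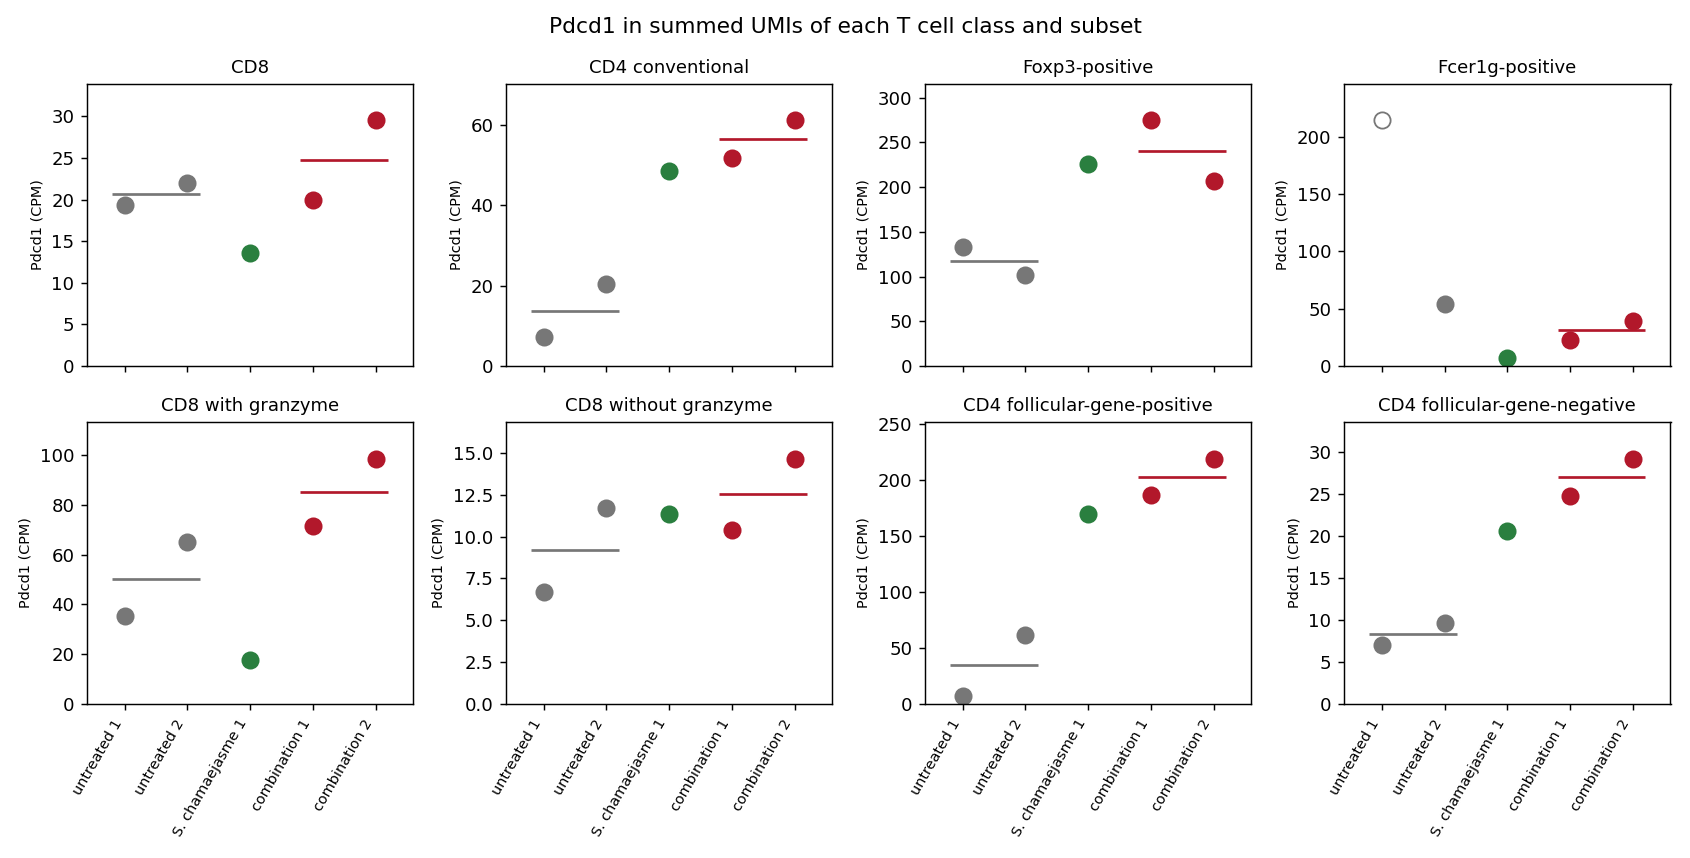
Pdcd1 level (CPM, vertical axis) in the 4 T cell classes and in subsets of CD8 and CD4 conventional cells, 1 point per library, coloured by group. Horizontal lines are means of the 2 libraries of a group, and the open circle is a sum of under 30 cells. Foxp3-positive cells lie between 102 and 274 CPM, while CD8 cells lie between 13.6 and 29.5 CPM in all 5 libraries.

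Over the 5 libraries the mean was 188 ± 70.3 CPM in Foxp3-positive cells, 37.7 ± 22.9 CPM in CD4 conventional cells and 20.9 ± 5.75 CPM in CD8 cells (SD, n = 5). In Fcer1g-positive cells it was 67.4 ± 83.8 CPM, with the sum of 10 cells included. A fit on the sums with library as a block (edgeR's quasi-likelihood test, p adjusted by Benjamini-Hochberg over all genes tested, threshold 0.05) put Pdcd1 in Foxp3-positive cells 2.12 ± 0.21 log2 units (± SE) above CD4 conventional cells (adjusted p = 1.25e-08) and 2.98 ± 0.24 above CD8 cells (adjusted p = 1.75e-10). These classes differ in many genes: 33.1% and 41.5% of all genes tested passed in those comparisons. Pdcd1 was also lower in Fcer1g-positive than in Foxp3-positive cells, by a log2 difference of -3.37 ± 0.48 (adjusted p = 6.28e-06, 24% of genes called). Fcer1g-positive cells did not pass against CD4 conventional cells (-1.25 ± 0.58, adjusted p = 0.134, 21.3% called) or against CD8 cells (-0.39 ± 0.64, adjusted p = 0.773, 14.4% called).

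CD8 cells were below CD4 conventional cells in the fit, at -0.86 ± 0.24 log2 units (adjusted p = 0.00889, with 23.3% of genes called). This call was lost in DESeq2 (-0.64, adjusted p = 0.438), without the library block (-0.84, adjusted p = 0.163), and without combination library 1 (adjusted p = 0.0926) or 2 (adjusted p = 0.0731). With classes taken from clusters it turned to 0.33 (adjusted p = 0.354). The order of Foxp3-positive over both other classes held in all of these settings.

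The share of cells with a Pdcd1 UMI was highest in Foxp3-positive cells too. Pooled over libraries it was 33.5% of Foxp3-positive cells (95% Wilson interval 30.9% to 36.1%), 8.73% of CD4 conventional cells (8.02% to 9.48%), 4.35% of CD8 cells (3.73% to 5.06%) and 4.25% of Fcer1g-positive cells (2.50% to 7.13%). These intervals cover counting error only. Of the 306 Fcer1g-positive cells, 168 came from the S. chamaejasme library, where their share was 1.19% against 3.70% of CD8 cells. In the other 4 libraries the Fcer1g-positive share was the higher one, at 20%, 5.26%, 6.90% and 9.38% against 4.67%, 2.73%, 3.66% and 6.74% of CD8 cells, from 2 to 4 positive Fcer1g-positive cells each. As a background, resting CD8 cells, with transcripts of resting T cells such as Ccr7 and without a granzyme UMI, were positive in 27 of 1999 cells, or 1.35%, at a median depth of 5178 UMIs. Cells with no CD3 UMI and a myeloid or B cell UMI were positive in 1 of 35, at a median of 2369 UMIs. The class shares stood above the share in resting CD8 cells, except the 1.19% of Fcer1g-positive cells in the S. chamaejasme library.

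Within CD8 cells, Pdcd1 was higher in those with a cytotoxic granule transcript. CD8 cells with a UMI of Gzmb or Gzmk had 35.6, 65.0, 17.7, 71.4 and 98.6 CPM in untreated 1 and 2, S. chamaejasme, and combination 1 and 2, respectively. CD8 cells with neither had 6.72, 11.7, 11.3, 10.4 and 14.7 CPM in the same order. The granzyme-positive value was the higher in every library, by 2.13 ± 0.23 log2 units (adjusted p = 2.77e-06, with 23.9% of genes called). Resting CD8 cells had 4.74 to 8.90 CPM.

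Within CD4 conventional cells, Pdcd1 was concentrated in those with a transcript of Cxcr5, Il21 or Tox2, which mark follicular helper T cells, the CD4 cells that help B cells. These follicular-gene-positive cells had 7.66, 61.4, 169, 186 and 219 CPM in the same library order. The CD4 conventional cells without these transcripts had 7.07, 9.62, 20.6, 24.8 and 29.2 CPM. In untreated library 1 the values were nearly alike, resting on 3 Pdcd1 UMIs in 75 follicular-gene-positive cells, and in the other 4 libraries the follicular-gene-positive value was several times the other. The fitted difference was 2.54 ± 0.14 log2 units (adjusted p = 1.94e-10, with 32.5% of genes called).

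The first treatment question is whether Pdcd1 differed between combination and untreated tumours in each class. It was higher in the combination libraries in CD4 conventional and in Foxp3-positive cells, and not detectably so in CD8 cells. In CD4 conventional cells the untreated mean was 13.7 ± 9.26 CPM and the combination mean 56.3 ± 6.66 CPM (SD, n = 2 each), and the groups did not overlap. The log2 difference was 1.83 ± 0.28 (adjusted p = 0.00958), in a comparison where 5.24% of genes passed.

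The CD4 conventional difference depended in size on which untreated library was used: it was 2.96 without untreated library 2, the higher one, and 1.39 without untreated library 1. DESeq2 gave 1.95 (adjusted p = 0.106) and gates of 2 UMIs gave 1.41 (adjusted p = 0.0797), so these settings lost the call. Since some regulatory T cells lack a Foxp3 UMI, the comparison was repeated without clusters rich in Foxp3, and the levels were then 5.98, 16.6, 44.8, 47.1 and 54.9 CPM in the 5 libraries. The difference was 1.98 ± 0.27 in that setting (adjusted p = 0.00475). The summed regulatory markers (Foxp3, Ikzf2, Lrrc32, Il10) ran from 53.1 to 103 CPM in untreated, 116 CPM in S. chamaejasme and 96.0 to 103 CPM in combination CD4 conventional cells.

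The follicular-gene-positive and -negative CD4 cells both showed the difference between combination and untreated. In the positive cells the untreated mean was 34.5 ± 38.0 CPM and the combination mean 203 ± 23.2 CPM (SD, n = 2 each), with a log2 difference of 2.18 ± 0.36 (adjusted p = 0.0101, 0.636% of genes called). It was 4.58 without untreated library 2 and 1.61 without untreated library 1, and DESeq2 did not call it (adjusted p = 0.999). In the negative cells the means were 8.34 ± 1.80 and 27.0 ± 3.13 CPM, with a log2 difference of 1.60 ± 0.23 (adjusted p = 0.00654, 4.66% called) that kept its call in 11 of 11 alternatives. The difference was thus called on both sides of the follicular gate.

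In Foxp3-positive cells the untreated mean was 117 ± 22.3 CPM and the combination mean 241 ± 47.8 CPM (SD, n = 2 each). The log2 difference was 1.02 ± 0.21 (adjusted p = 0.0431), where only 0.53% of genes passed. This call sat near the threshold and held in 5 of 14 alternatives; DESeq2 gave an adjusted p of 0.0869. Leaving out combination library 1 or 2 gave 0.80 (adjusted p = 0.812) and 1.22 (adjusted p = 0.843). The regulatory markers summed to 1347 to 1443 CPM in untreated and 1370 to 1538 CPM in combination Foxp3-positive cells.

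CD8 cells had 20.7 ± 1.89 CPM untreated and 24.7 ± 6.76 CPM in the combination (SD, n = 2 each). The difference of 0.25 ± 0.23 log2 units did not pass (adjusted p = 0.564), in a comparison that called 4.82% of genes, and it was -0.05 without combination library 2. In granzyme-positive CD8 cells the means were 50.3 ± 20.8 and 85.0 ± 19.2 CPM, a log2 difference of 0.77 ± 0.29 (adjusted p = 0.162, 2.88% called). It was 1.21 without untreated library 2, where 1 untreated library is left. CD8 cells without granzyme differed by 0.33 ± 0.33 (adjusted p = 0.63, 4.09% called). Fcer1g-positive cells differed by -0.93 ± 1.5 (adjusted p = 0.843, 2.59% called), an interval too wide to read.

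Whether the combination difference itself differed between classes was tested in 1 fit. In CD8 cells it was smaller than in CD4 conventional cells, by a log2 value of -1.60 ± 0.36 that did not pass over all genes (adjusted p = 0.103). Only 0.0544% of genes were called there. The adjusted p was 1.98e-06 with no filter on low counts. The difference also passed without combination library 1 or 2, where 1 combination library is left. The Foxp3-positive difference was -0.76 ± 0.34 against CD4 conventional cells (adjusted p = 0.676, 0.209% called), and the CD8 difference was -0.84 ± 0.35 against Foxp3-positive cells (adjusted p = 0.501, 0.59% called). It was thus not shown that the classes differ in this respect.

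**Figure D2:**
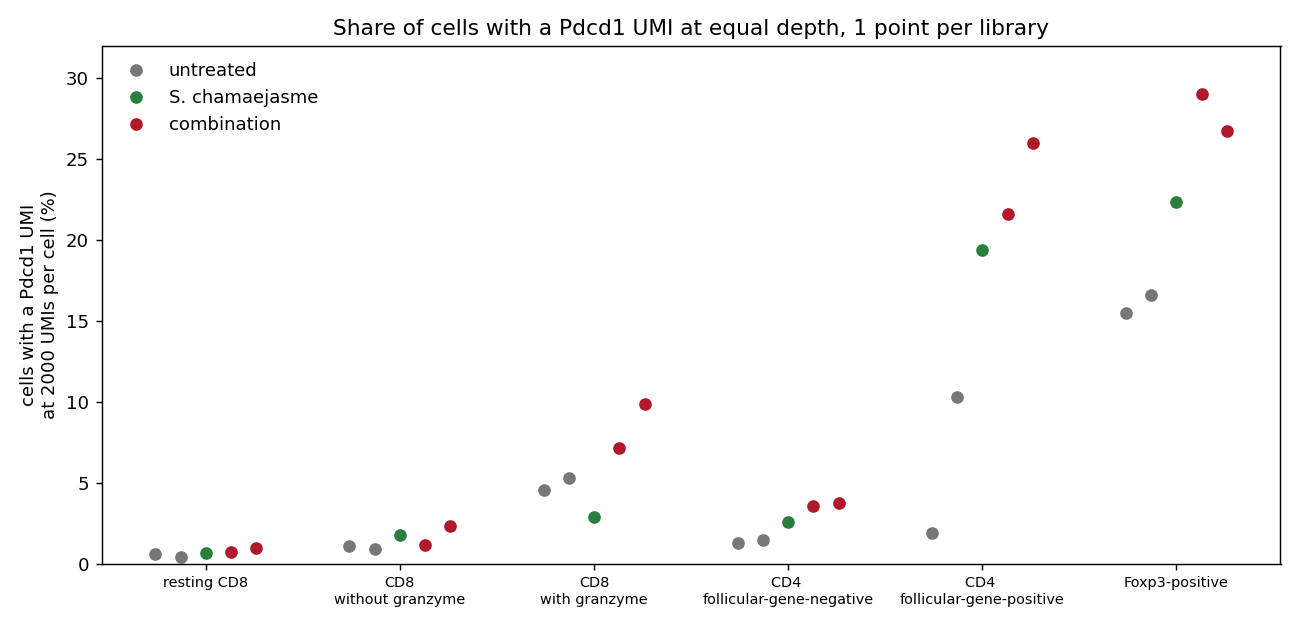
Percent of cells with a Pdcd1 UMI (vertical axis) after each cell was thinned to 2000 UMIs, 1 point per library, coloured by group. Columns are resting CD8, CD8 without and with granzyme, follicular-gene-negative and -positive CD4, and Foxp3-positive cells. Foxp3-positive cells run from 15.5% to 29.0% and follicular-gene-positive CD4 cells from 1.93% to 26.0%, while resting CD8 cells stay between 0.425% and 0.977%.

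In CD4 conventional cells the shares of positive cells ranked the libraries as CPM did, also once depth was held alike. In Foxp3-positive cells the full ranking differed from that by CPM. Unthinned, 2.08% (11 of 528) and 5.12% (44 of 860) of untreated, 8.23% (92 of 1118) of S. chamaejasme, and 10.3% (174 of 1694) and 11.7% (181 of 1553) of combination CD4 conventional cells had a UMI. With each cell thinned to 2000 UMIs and shallower cells left out (5551 cells stayed), the shares were 1.36%, 3.1%, 5.50%, 6.35% and 7.27%. In Foxp3-positive cells the thinned shares were 15.5%, 16.6%, 22.3%, 29.0% and 26.7% (unthinned 21.1%, 25.5%, 27.1%, 39.0% and 39.0%). Both untreated libraries lay below the other 3 in these 2 classes.

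In CD8 cells the thinned shares were 2.61%, 1.82%, 2.19%, 2.06% and 3.72% (unthinned 4.67%, 2.73%, 3.70%, 3.66% and 6.74%), and groups overlapped. Follicular-gene-positive CD4 cells had thinned shares of 1.93%, 10.3%, 19.4%, 21.6% and 26.0% in that library order. Granzyme-positive CD8 cells had thinned shares of 4.53%, 5.33%, 2.91%, 7.18% and 9.89%, with the combination libraries highest and the S. chamaejasme library lowest.

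The S. chamaejasme library was compared with the untreated pair to give the difference that went with the plant alone. In CD4 conventional cells its level was 1.58 ± 0.34 log2 units higher, just outside the threshold (adjusted p = 0.0559, 1.56% of genes called). It passed outside Foxp3-rich clusters (1.75, adjusted p = 0.0396). With any 1 of the other 4 libraries left out it ranged from 1.14 to 2.71. Leaving out an untreated library sets 1 library against 1, with the spread taken from the combination pair. The follicular-gene-positive cells differed by 1.96 ± 0.42 (adjusted p = 0.109, 0.26% called) and the -negative cells by 1.16 ± 0.29 (adjusted p = 0.0814, 1.44% called). Foxp3-positive cells differed by 0.98 ± 0.25 (adjusted p = 0.144, 0.316% called). Their difference was 1.12 without untreated library 1 and 0.81 without untreated library 2, each then 1 library against 1.

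In CD8 cells the S. chamaejasme library was on the other side by CPM. Its level lay below both untreated libraries in all CD8 cells and in granzyme-positive ones, but not in those without granzyme. The thinned share of positive CD8 cells, 2.19%, lay between the untreated values of 2.61% and 1.82%. The log2 difference was -0.76 ± 0.31 in all CD8 cells (adjusted p = 0.201, 2.07% of genes called) and -1.49 ± 0.41 in granzyme-positive CD8 cells (adjusted p = 0.0743, 1.21% called). Neither passed. Without untreated library 1, which sets 1 library against 1, the first was -0.91 and the second -1.95. CD8 cells without granzyme differed by 0.04 (3.42% called), and Fcer1g-positive cells by -3.00 ± 1.83 (adjusted p = 0.424, 6.28% called).

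The antibody is the labelled difference between the combination and the S. chamaejasme library. In granzyme-positive CD8 cells Pdcd1 was higher in the combination, at 71.4 and 98.6 CPM against 17.7 CPM, by 2.26 ± 0.38 log2 units (adjusted p = 0.00929). Few genes passed there, 0.163% of those tested. DESeq2 (adjusted p = 0.285) and keeping doublets (1.93, adjusted p = 0.113) lost the call. Over all CD8 cells the difference was 1.01 ± 0.29 (adjusted p = 0.129, 1.09% called). It passed when either untreated library was left out, where only the combination pair is replicated. CD8 cells without granzyme differed by 0.29 ± 0.37 (adjusted p = 0.809, 2.54% called).

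The other classes showed no detectable difference between combination and S. chamaejasme. It was 0.26 ± 0.27 in CD4 conventional (adjusted p = 0.759, 0.815% of genes called), 0.22 ± 0.35 in follicular-gene-positive (adjusted p = 0.968, 0.0519% called) and 0.44 ± 0.23 in follicular-gene-negative cells (adjusted p = 0.50, 1.19% called). Foxp3-positive cells gave 0.04 ± 0.22 (adjusted p = 0.988, 0.164% called) and Fcer1g-positive cells 2.07 ± 1.68 (adjusted p = 0.897, 0.648% called). A missed threshold with 1 library on one side does not show that the levels are alike.

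The transcripts Lars2 and AY036118, read here as markers of RNA quality, moved with the untreated group. Lars2 encodes a mitochondrial tRNA ligase, is among the leading genes of 2 clusters, and was at 1663 to 1782 CPM in untreated CD4 conventional cells, 470 CPM in S. chamaejasme and 612 to 736 CPM in the combination. In Foxp3-positive cells it was at 1015 to 1377, 429 and 475 to 608 CPM, and in CD8 cells at 1793 to 2078, 422 and 714 to 753 CPM. AY036118 was at 2735 to 3707, 743 and 907 to 1206 CPM in CD4 conventional cells, in the same order of groups. It was at 2179 to 2672, 662 and 715 to 874 CPM in Foxp3-positive cells and at 2840 to 3894, 752 and 1091 to 1197 CPM in CD8 cells. Without the 2 clusters that have Lars2 among their leading genes, the combination minus untreated difference of Pdcd1 was 1.47 in CD4 conventional cells (adjusted p = 0.0242) and 0.97 in Foxp3-positive cells (adjusted p = 0.050). The part of Lars2-rich cells, or of RNA quality, in the remaining difference was not tested.

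The make-up of the classes also differed between groups. CD4 conventional cells came mainly from clusters 1, 2, 3 and 7 in the untreated libraries and from clusters 0, 1, 2 and 4 in the combination. Cluster 7, which has Lars2 among its 10 leading genes, made up 21.4% and 30.5% of untreated CD4 conventional cells. Cluster 1, led by Tox2, Tbc1d4, Tnfsf8 and Il21, held 19.7% to 24.1% of the class in every library and 50.6% to 80% of its Pdcd1 UMIs. All 2547 kept cells of that cluster were also summed, whatever their class, and 53.2% of them had a Cd4 UMI. They gave a log2 difference of 1.90 ± 0.18 between combination and untreated (adjusted p = 0.00123) and 1.69 between S. chamaejasme and untreated (adjusted p = 0.00974). In CD8 cells, the cluster led by Ccl5, Gzma and Gzmk held 51.8%, 29.5%, 53.7%, 20.2% and 24.0% of the cells and 70% to 92.7% of the Pdcd1 UMIs. All 1424 kept cells of that cluster were summed too, whatever their class, and 85.3% of them had a Cd8a UMI. They passed in both comparisons with the S. chamaejasme library, at -1.65 for S. chamaejasme minus untreated (adjusted p = 0.0245) and 2.43 for combination minus S. chamaejasme (adjusted p = 0.00203).

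Clusters of all kept cells, built without Pdcd1 among the genes used, show where the transcript sat. The cluster led by Penk, Tnfrsf9, Klrg1 and Foxp3 (1600 cells, of which 57.2% had a Foxp3 UMI) was highest, at 278 CPM with 40.4% of its cells positive. It made up 7.91% of cells and held 42.6% of all Pdcd1 UMIs. Next in number of UMIs came the Tox2-led cluster at 123 CPM, with 20.6% of its cells positive, 12.6% of cells and 33.1% of UMIs. Between them these clusters held most of the Pdcd1 transcript.

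A small cluster led by Trdv4 and Cd163l1, genes of gamma delta T cells, had 139 CPM over 198 cells. The cluster of cytotoxic genes (Ccl5, Gzma, Gzmk, Gzmb) had 61.8 CPM, a Lrrc32-led cluster with Foxp3 in 28.9% of cells had 34.2 CPM, and the Xcl1- and Fcer1g-led cluster had 30.4 CPM. The cluster of Il17a and Il22, cytokines of type 17 T cells, had 15.1 CPM. At the low end, the cluster led by Cd8b1 and Ly6c2 had 2.74 CPM and the 4 lowest had 0.683 to 1.81 CPM.

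By library, the Penk-led cluster was at 151 and 161 CPM untreated, 284 CPM with S. chamaejasme, and 331 and 298 CPM in the combination. The Tox2-led cluster was at 29.5, 45.9, 134, 152 and 166 CPM in that order. In both, the untreated libraries were the lowest 2. The cytotoxic cluster was at 38.9, 79.8, 19.3, 102 and 112 CPM, and the Trdv4-led cluster at 39.0, 140, 51.7, 222 and 292 CPM, from 19 to 87 cells each. In these the combination libraries were the highest 2.

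**Figure D3:**
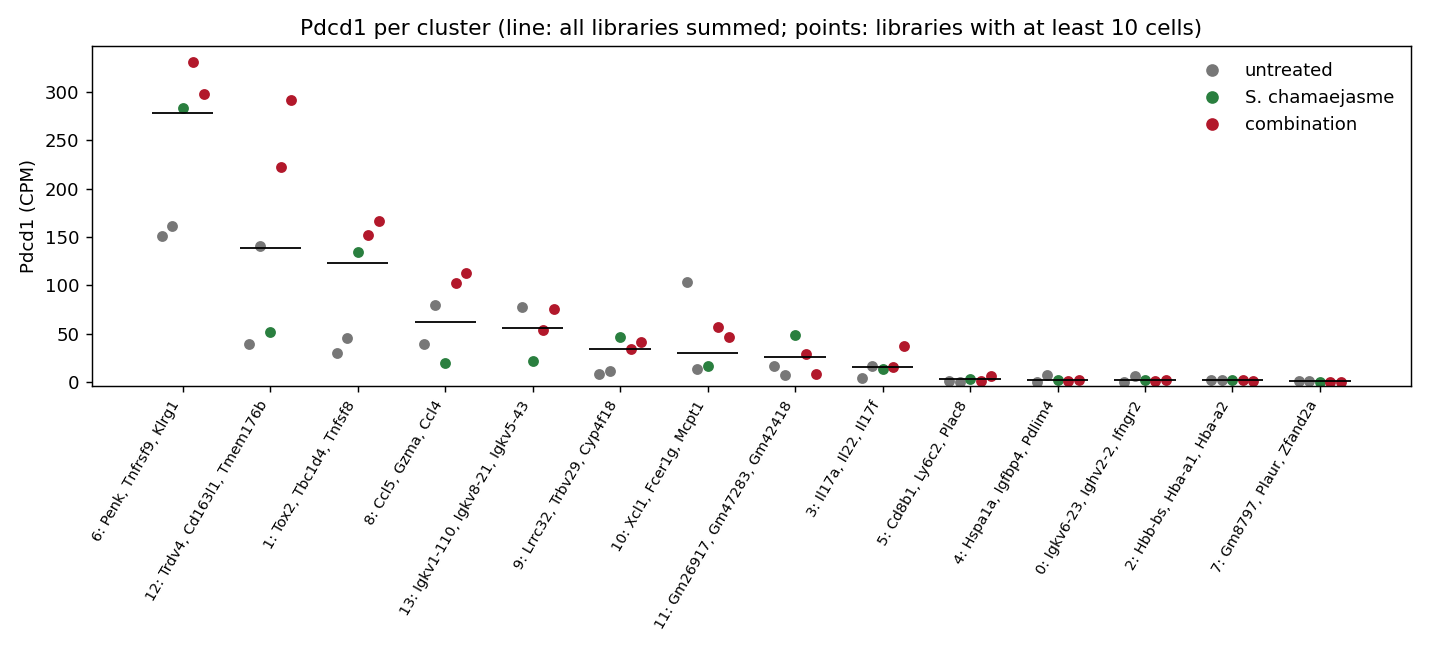
Pdcd1 level (CPM) of the 14 clusters, named by number and leading genes; the line marks all libraries summed and points are libraries with at least 10 cells in the cluster. The cluster led by Penk stands at 278 CPM and the Tox2-led cluster at 123 CPM, against under 3 CPM in 5 clusters.

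Across the 13 clusters with at least 100 cells, the genes whose level went most closely with Pdcd1 were found by Pearson's r of log2(CPM + 5) among 6755 candidates. They were Ap3b1 (r = 0.954), Ypel3 (0.948), M6pr (0.939), Elk3 (0.937), Slc35b1 (0.931) and Nt5e (0.928). Ap3b1 and M6pr encode proteins of vesicle and lysosomal sorting, and Nt5e encodes CD73, an ectoenzyme that makes adenosine. The points share libraries and depth, and with 13 points and 6755 candidates high values of r arise readily, so this is a description only. Of all listed genes, Cd44 (0.857), Ikzf2 (0.854), Zap70 (0.839), Pdcd1lg2 (0.837), Tnfrsf9 (0.830) and Icos (0.821) had the highest r, while Nfatc1 had 0.809, Ctla4 0.761, Tox 0.464, and Satb1 -0.622.

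Clone size sets cells that share their receptor with another kept cell (expanded) against cells whose receptor was seen once (single). Among CD4 conventional cells, expanded ones had more Pdcd1 in every library. Cells of a clonotype with 1 kept cell had 3.42, 14.9, 37.6, 34.3 and 47.1 CPM in untreated 1 and 2, S. chamaejasme, and combination 1 and 2, and cells of clonotypes with 2 or more had 15.2, 40.1, 99.2, 218 and 244 CPM. The log2 difference was 1.94 ± 0.16 (adjusted p = 2.89e-08, with 22.5% of genes called), and it passed in 16 of 16 alternatives.

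Pooled, 7.19% of 4644 single and 19.6% of 624 expanded CD4 conventional cells had a Pdcd1 UMI. Within the Tox2-led cluster alone the difference was 0.92 ± 0.14 (adjusted p = 0.000493), and with expanded and single cells matched on depth it was 1.61 (adjusted p = 4.99e-05). The single cells differed between groups too, since both untreated values lay below the other 3.

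In CD8 cells the single and expanded values were 12.7 and 31.6, 9.52 and 99.2, 12 and 13.8, 19.1 and 49.4, and 22.8 and 79.3 CPM in the same order of libraries. The expanded value was higher in all 5, by little in the S. chamaejasme library. The fit gave 1.51 ± 0.29 log2 units (adjusted p = 0.000541, with 21.2% of genes called). With clones of 2 cells left out, the difference was 0.06 (adjusted p = 0.948). CD8 cells of clones with 2 to 4 cells had 48.7, 201, 18.6, 53.1 and 87.9 CPM, and those of clones with 5 or more had 11.5, 9.12, 11.1, 27.0 and 59.1 CPM, in the same order of libraries. The level was thus lower in the larger clones of every library, but not the share of positive cells: it was 10% against 14.3% in combination library 1 and 12.1% against 20.7% in combination library 2, the last values of each pair from 7 and 29 cells. Within the Gzmk-led cluster alone the log2 difference between expanded and single cells was -0.23 ± 0.24 (adjusted p = 0.906), so expanded and single CD8 cells of that cluster were not told apart by Pdcd1.

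Foxp3-positive cells had few expanded clones, 79 cells against 944 single ones. Their single and expanded values were 120 and 341, 91.2 and 150, 190 and 196, 247 and 414, and 197 and 223 CPM. Only 3 libraries had enough cells for the fit, which did not pass (0.33 ± 0.22, adjusted p = 0.644, 4.48% of genes called). The pooled shares of positive cells were 31.7% for single and 46.8% for expanded cells.

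**Figure D4:**
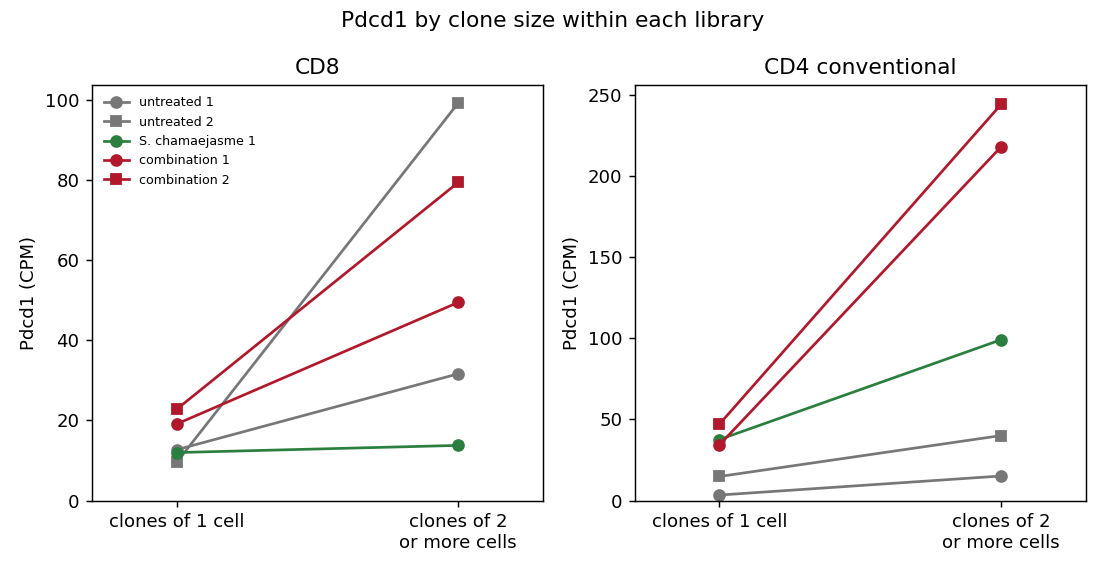
Pdcd1 level (CPM) of cells of clonotypes with 1 kept cell and with 2 or more, in CD8 and CD4 conventional cells. Lines join the values of 1 library, coloured by group. Every CD4 conventional line goes up, from 3.42 to 15.2 CPM in untreated library 1 and from 47.1 to 244 CPM in combination library 2.

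Positive cells were spread over many clones. Of 375 expanded clones whose cells were mostly CD4 conventional, 116 (30.9%) had a Pdcd1-positive cell and 24 had a UMI in every cell. By library these were 7 of 56, 8 of 54, 38 of 122, 36 of 78 and 27 of 65 clones. The corresponding counts were 41 of 179 CD8 clones (22.9%), 4 of them wholly positive, and 29 of 42 Foxp3-positive clones (69.0%), 9 of them wholly positive. The CD4 clones without a positive cell were the larger part in every library.

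The receptor sequences below are those of clones with the most Pdcd1-positive cells in each class, shown so that the clones behind the values can be recognised. They are CDR3 regions, the parts of the T cell receptor that touch the antigen, as deposited, 5′ to 3′. None was found in another library. In combination library 2, a CD4 clone of 5 cells (3 CD4 conventional and 2 in no class) had 10 Pdcd1 UMIs with all 5 positive. A clone of 3 cells, all CD4 conventional, had 26 UMIs with all 3 positive. Both use TRBV31 and TRBJ1-4 in the beta chain, and capitals mark the bases between their shared start (12 bases) and shared end (16 bases).
5-cell CD4 clone, beta chain: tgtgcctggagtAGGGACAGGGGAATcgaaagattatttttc
3-cell CD4 clone, beta chain: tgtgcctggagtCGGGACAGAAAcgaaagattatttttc
5-cell CD4 clone, alpha chain (TRAV14D-2, TRAJ49): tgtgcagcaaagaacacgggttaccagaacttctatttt
3-cell CD4 clone, alpha chain (TRAV10N, TRAJ52): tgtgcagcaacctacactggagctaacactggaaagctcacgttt

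The beta chains share their V and J genes and differ in the joining bases, and the alpha chains shown use different genes, so these are separate clones. The 3-cell clone had 2 alpha chain sequences, and the first by number of cells and then of UMIs is shown. Among Foxp3-positive clones, one of 4 cells in combination library 2 (2 Foxp3-positive and 2 in no class) had 3 Pdcd1-positive cells and 7 UMIs. Another of 4 cells in the S. chamaejasme library (3 Foxp3-positive and 1 in no class) had 3 Pdcd1-positive cells and 5 UMIs.
Foxp3 clone of combination library 2, beta chain (TRBV13-1, TRBJ1-6): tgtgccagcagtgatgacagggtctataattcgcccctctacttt
Foxp3 clone of the S. chamaejasme library, beta chain (TRBV10, TRBJ2-2): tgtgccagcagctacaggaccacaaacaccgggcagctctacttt

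Among CD8 clones, one of 8 cells in combination library 2 had 3 positive cells with 5 UMIs, and one of 2 cells in untreated library 2 had both positive with 16 UMIs. One cell of the latter fell into the Fcer1g-positive class. The largest CD8 clone, with 44 cells in the S. chamaejasme library, had 2 positive cells.
8-cell CD8 clone, alpha chain (TRAV12-1, TRAJ48): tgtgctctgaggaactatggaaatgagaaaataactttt
2-cell CD8 clone, beta chain (TRBV10, TRBJ2-7): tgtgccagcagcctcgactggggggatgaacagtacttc
44-cell CD8 clone, beta chain (TRBV13-3, TRBJ1-4): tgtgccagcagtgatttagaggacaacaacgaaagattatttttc

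The genes that go with Pdcd1 were sought by setting cells with a Pdcd1 UMI against as many cells of the same library and class without one, matched on total UMIs. Cells were not matched on cluster, so differences between the clusters of a class enter these values. The matched pairs numbered 17 to 55 per library in CD8, 11 to 181 in CD4 conventional and 16 to 146 in Foxp3-positive cells. In CD8 cells, 29 genes were higher and 15 lower in positive cells (2.64% of 1669 genes called). CD4 conventional cells gave 441 higher and 380 lower genes (19% of 4313), and Foxp3-positive cells 208 and 226 (12.7% of 3430). CD8 cells had the fewest cells and the fewest genes tested, so the counts do not compare the classes. Without combination library 1 the counts were 239 and 208 in CD4 conventional, 11 and 8 in CD8, and 111 and 115 in Foxp3-positive cells, and without combination library 2 they were 214 and 210 in CD4 conventional and 13 and 9 in CD8 cells. The median over all genes tested was 0.04, 0.02 and 0.00 log2 units.

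Genes of resting and recirculating T cells were lower in Pdcd1-positive cells of all 3 classes. Of the 9 genes listed for stem-like and resting T cells, 7 were lower in each class, with medians of -1.64 in CD8, -1.50 in CD4 conventional and -1.11 in Foxp3-positive cells. Lef1, Ccr7, Klf2 and S1pr1, which act in quiescence and in exit from tissue, were at -1.64, -1.64, -1.77 and -1.67 in CD8 and at -1.65, -1.55, -1.50 and -2.10 in CD4 conventional cells.

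Tcf7, the gene of TCF-1 that maintains stem-like T cells, did not follow the rest of that list in every class. It did not pass in CD8 cells (-0.37, adjusted p = 0.240) or in CD4 conventional cells (0.29, adjusted p = 0.109), and it was lower in Foxp3-positive cells (-1.03). Slamf6, a surface marker of the same state, did not pass in CD8 cells (0.26, adjusted p = 0.727) and was higher in CD4 conventional cells (0.79, adjusted p = 0.000132).

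Other inhibitory receptors that passed were higher in Pdcd1-positive cells. Counts of higher genes were 2 of 5 tested in CD8, 4 of 7 in CD4 conventional and 3 of 7 in Foxp3-positive cells. Tigit was at 238 ± 98.6 CPM in positive and 61.3 ± 17.0 CPM in negative CD8 cells (SD, n = 5), a log2 difference of 1.75 ± 0.27 (adjusted p = 0.00371). It was 1.29 in CD4 conventional and 0.83 in Foxp3-positive cells. Ctla4, which competes with CD28 for its ligands, was at 558 ± 138 against 185 ± 99.7 CPM in CD8 cells (1.43 ± 0.27, adjusted p = 0.0111) and at 1120 against 423 CPM in CD4 conventional cells (1.08, adjusted p = 4.37e-09).

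In Foxp3-positive cells Ctla4 did not differ detectably (0.06, adjusted p = 0.823). Foxp3 itself did not pass either (adjusted p = 0.997), but cells on both sides were chosen by a Foxp3 UMI, so that value says little. Lag3 was higher by 1.96 ± 0.20 in CD4 conventional cells (120 against 35 CPM, adjusted p = 1.47e-09) and by 0.82 in Foxp3-positive cells. Klrg1, a receptor of late effector cells, was higher by 1.18 in Foxp3-positive cells, and Cd200 by 1.16 in CD4 conventional cells.

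Of the factors known to act on Pdcd1, 1 of 11 tested was higher in CD8 cells, 7 of 17 were higher and 2 lower in CD4 conventional cells, and 7 of 16 were higher and 3 lower in Foxp3-positive cells. Nr4a2, an orphan receptor induced by T cell receptor signals, was higher in all 3 classes, by 1.19 ± 0.23 in CD8 (328 against 117 CPM, adjusted p = 0.0110), 1.14 in CD4 conventional and 0.72 in Foxp3-positive cells. Tox, which sustains Pdcd1 under chronic stimulation, was higher in CD4 conventional (1.41) and Foxp3-positive cells (0.59) and sat at the threshold in CD8 cells (1.28 ± 0.33, adjusted p = 0.0532).

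Nfatc1, the calcium-dependent factor that binds the Pdcd1 promoter, was higher by 0.98 in CD4 conventional and 0.67 in Foxp3-positive cells. Batf, Stat3 and Stat4 were higher in both as well, by 0.97, 0.42 and 0.78 in CD4 conventional and 0.55, 0.63 and 0.58 in Foxp3-positive cells. Rbpj, the DNA-binding partner of Notch, was higher in Foxp3-positive cells (1.42, 118 against 31.4 CPM, adjusted p = 9.23e-05). Satb1, a chromatin organiser that restrains Pdcd1, was lower in CD4 conventional (-1.42) and Foxp3-positive cells (-1.58). Jun was lower in both too (-0.54 and -0.94), and Fos in Foxp3-positive cells (-0.77).

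**Figure D5:**
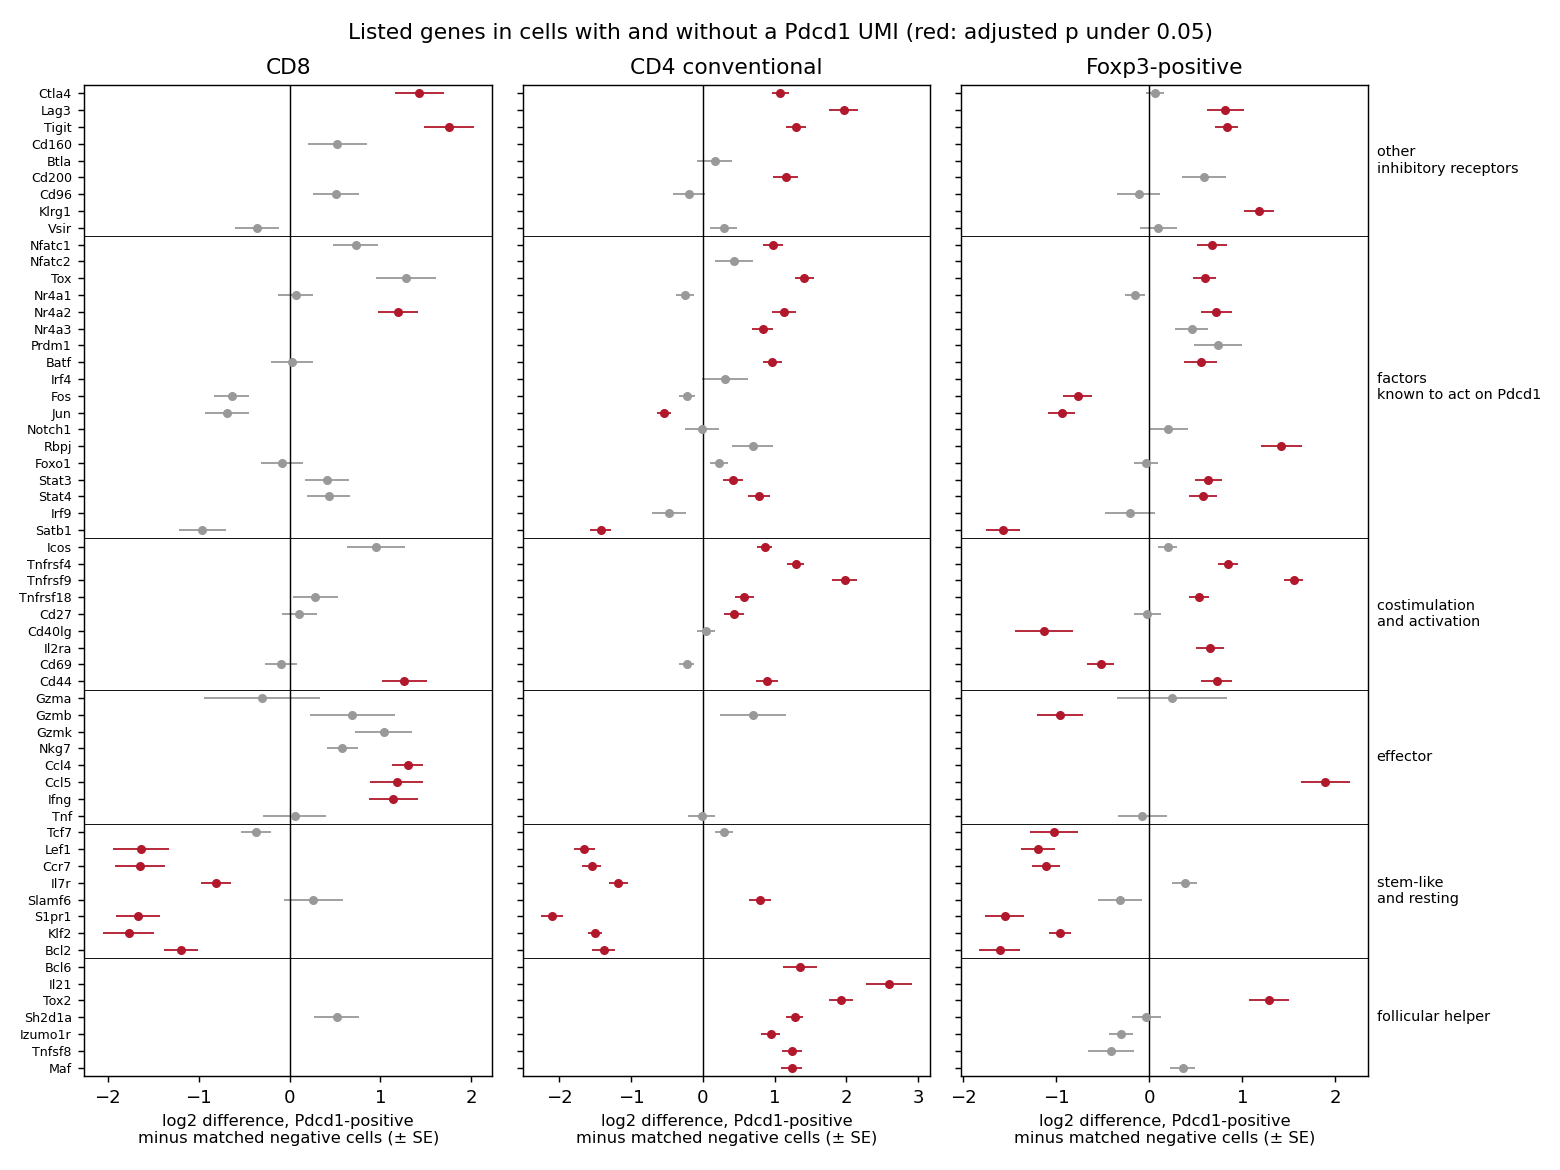
Log2 difference (bars ± SE) of listed genes between Pdcd1-positive cells and depth-matched Pdcd1-negative cells in CD8, CD4 conventional and Foxp3-positive cells; red marks an adjusted p under 0.05. Klf2 lies at -1.77 in CD8 and -1.50 in CD4 conventional cells, and Tigit at 1.75, 1.29 and 0.83 in the 3 classes.

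The signalling side of PD-1 was read in 9 listed genes. Ptpn11, the SHP-2 phosphatase that PD-1 recruits, was at 134 CPM in positive and 33.0 CPM in negative CD4 conventional cells (1.22, adjusted p = 2.11e-05). Zap70 and Lck, kinases of the T cell receptor pathway that PD-1 dampens, were higher by 0.65 (adjusted p = 0.000140) and 0.40 (adjusted p = 0.00402). Ptpn6 (SHP-1) did not pass (-0.29, adjusted p = 0.334). In CD8 cells the 8 genes tested did not pass, with Cd28 at 0.41 (adjusted p = 0.18) and Zap70 at 0.39 (adjusted p = 0.305). In Foxp3-positive cells Lat, an adaptor of the same pathway, was lower (-0.66). Of the ligands, Cd274 was higher in positive CD4 conventional cells (0.74, adjusted p = 0.00903), while in Foxp3-positive cells Cd274 was at -0.25 (adjusted p = 0.472) and Pdcd1lg2 at 0.43 (adjusted p = 0.335).

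Of the listed genes of costimulation and activation, 6 of 8 tested were higher in CD4 conventional cells. In Foxp3-positive cells 5 of 9 were higher and 2 lower, and in CD8 cells 1 of 5 was higher. Tnfrsf9 (4-1BB) was at 1838 CPM in positive and 556 CPM in negative Foxp3-positive cells (1.55 ± 0.10, adjusted p = 7.75e-10) and higher by 1.98 in CD4 conventional cells. Tnfrsf4 (OX40) was higher by 1.29 and 0.85, and Icos by 0.86 in CD4 conventional cells. In Foxp3-positive cells Cd40lg (-1.13) and Cd69 (-0.52) were lower. In CD8 cells Cd44, an adhesion receptor of antigen-experienced T cells, was higher by 1.26 (adjusted p = 0.0116), while Icos was at 0.95 (adjusted p = 0.124) and Tnfrsf18 at 0.28 (adjusted p = 0.584).

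Effector genes passed in CD8 cells in 3 of 8 tested. Ccl4, a chemokine that attracts other leukocytes, was at 729 against 253 CPM (1.3 ± 0.17, adjusted p = 0.00185), Ccl5 was higher by 1.18 (adjusted p = 0.0409) and Ifng, interferon gamma, by 1.14 (adjusted p = 0.0357). Gzmk (1.04, adjusted p = 0.088) and Gzmb (0.69, adjusted p = 0.464) did not pass within this depth-matched set.

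Follicular helper genes were higher in Pdcd1-positive CD4 conventional cells in 7 of 7 tested, with a median of 1.28. Il21, the cytokine of these cells, was higher by 2.60 ± 0.32 (adjusted p = 4.8e-08), Tox2 by 1.93 ± 0.17 (209 against 52.1 CPM, adjusted p = 5.17e-11) and Bcl6, their lineage factor, by 1.36 ± 0.23 (85.7 against 22.1 CPM, adjusted p = 2.49e-05). Sh2d1a, Tnfsf8, Maf and Izumo1r were higher by 1.28, 1.25, 1.24 and 0.94. In Foxp3-positive cells 1 of 5 passed, Tox2 at 1.28.

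Some of the leading genes in CD4 conventional cells are also high in Foxp3-positive cells. Ikzf2 is not particular to those, since 70.3% of Fcer1g-positive cells had it too. Penk (5.52), the leading gene of the Foxp3-rich cluster, and Ikzf2 (2.53) were among the 8 with the largest difference, with Art2b (3.50), Spock2 (3.18), Fam43a (2.86), Sh3rf1 (2.47), Rgs16 (2.37) and Cd38 (2.34). Igfbp4 (-3.76) and Pdlim1 (-2.53) were at the other end. The fit was therefore repeated outside Foxp3-rich clusters, over the 4 libraries with enough cells, where 387 genes were higher and 419 lower (14.8% called).

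There Gfra4 (4.94), Art2b (3.40), Spock2 (3.1), Sh3rf1 (2.99), Il21 (2.93), Lag3 (2.86), Rgs16 (2.80) and Ikzf2 (2.68) led, and Dapl1 (-4.62), Treml2 (-3.94), Pdlim4 (-3.87) and Igfbp4 (-3.64) were lowest. Follicular helper genes were higher in 8 of 8 tested, among them Cxcr5 (1.99), the receptor that leads T cells into B cell follicles. Pdcd1lg2, the PD-L2 gene, was higher by 1.89. Tnfrsf18 (GITR), which was higher by 0.58 in the whole class, was at 0.08 (adjusted p = 0.842).

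In CD8 cells the leading genes were S100a6 (1.98), S100a4 (1.80), Ctla2a (1.77), Klrc1 (1.76), Tigit, Serpinb6b (1.5), Adora2a (1.47) and Lgals1 (1.43), and Igfbp4 (-3.11) was the lowest. Klrc1 encodes NKG2A, an inhibitory receptor of cytotoxic cells, and Adora2a a receptor for adenosine. Without combination library 2, Adora2a (1.17, adjusted p = 0.118), Klrc1 (1.61, adjusted p = 0.0530) and S100a4 (1.55, adjusted p = 0.118) stayed higher in value but lost their call. Calls were also lost for Ctla2a, Klf2, Lgals1, S100a4, S100a6 and Serpinb6b without the library block. DESeq2 did not call Klrc1 (adjusted p = 0.0725).

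In Foxp3-positive cells the leading genes were Dusp14 (2.13), Ccl5 (1.89), Fam46a (1.79), Pcyt1a (1.73), Tmem158 (1.66), Itgb8 (1.61), Ttc39c (1.57) and Tnfrsf9, and Igfbp4 (-3.21), Bcl2 (-1.61) and Satb1 were among the lowest. Itgb8 encodes the integrin chain through which regulatory T cells activate TGF-beta. Ikzf2 was higher by 0.82 and Il2ra by 0.66. Epcam, on the list of tumour epithelium, was higher too (1.20, adjusted p = 0.00117). Of the same list, Krt18 had UMIs in Foxp3-positive cells of every library and Krt8 had none in any. What part epithelial RNA has in these cells was not tested.

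The same lists were read between groups. Between combination and untreated CD4 conventional cells, Pdcd1 was higher, while 5 of the 20 factors known to act on it were lower and 1 was higher, against 5.24% of all genes tested called in either direction. Prdm1, which encodes the repressor Blimp-1, was lower by a log2 difference of -1.32 ± 0.23 (adjusted p = 0.0146), and Irf4 (-0.99), Rbpj (-0.92), Nfatc2 (-0.86) and Nr4a3 (-0.62) were lower as well. Of these, Nr4a3 was higher in Pdcd1-positive than in Pdcd1-negative CD4 conventional cells (0.83, adjusted p = 4.54e-05), whereas Irf4 (adjusted p = 0.595), Rbpj (adjusted p = 0.0870) and Nfatc2 (adjusted p = 0.283) did not pass there. Fos, a subunit of the AP-1 factor that acts with NFAT, was the one that was higher (0.86 ± 0.10, adjusted p = 0.00277). Of the follicular helper genes, Il21 (-1.14 ± 0.24, adjusted p = 0.0297) and Bcl6 (-0.75 ± 0.14, adjusted p = 0.0183) were lower, although both were higher in Pdcd1-positive than in Pdcd1-negative cells. Tox2 was at -0.12 (adjusted p = 0.672).

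The other inhibitory receptors of CD4 conventional cells gave values of either sign that did not pass. Lag3 came nearest, at 1.32 ± 0.35 (adjusted p = 0.0629), while Ctla4 was at -0.14 (adjusted p = 0.389) and Tigit at -0.30 (adjusted p = 0.116). In CD8 cells, where Pdcd1 did not pass, Tigit was lower (-0.72 ± 0.12, adjusted p = 0.0108), and so were Prdm1 (-1.42), Nr4a3 (-1.25), Rbpj (-0.92), Nr4a2 (-0.60) and Nr4a1 (-0.56). In Foxp3-positive cells Fos (0.86 ± 0.16, adjusted p = 0.0273) and Nr4a1 (0.69 ± 0.15, adjusted p = 0.0489) were higher, and Ctla4 was at 0.41 (adjusted p = 0.20) and Tigit at -0.46 (adjusted p = 0.213). Whether Pdcd1 differs from these genes in its response was not itself tested.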

How the data were processed

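The 5 RNA and 5 T cell receptor libraries were read as deposited. Per the submitters' processing notes, the authors used Cell Ranger 3.1.0 and STAR with the mm10 build. The count matrices hold the UMI counts the authors deposited per gene and barcode, not normalised, and the receptor tables hold deposited read and UMI counts per contig with the other contig fields. CPM was computed here from those counts.

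Barcodes with 300 genes or more and no more than 10% of UMIs from mitochondrial genes were taken as cells (21549). Scrublet's automatic threshold marked 17 cells, so doublets were instead taken by score at an expected 0.8% per 1000 cells (799) or by more than 1 productive beta chain (618). In all, 1310 were removed. Clusters (scanpy 1.11.5, leidenalg 0.10.2) used 2000 variable genes without Pdcd1, 30 principal components, 15 neighbours and resolution 1. Leading genes used a pseudocount of 10 CPM. A cluster with a Foxp3 UMI in at least 20% of cells was called Foxp3-rich. Clones are the authors' clonotypes, sized over kept cells of a library.

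UMI sums per library and class (at least 30 cells, or 10 for comparisons within a library) were tested with edgeR 4.0.16's quasi-likelihood test (TMM, filterByExpr, two-sided, Benjamini-Hochberg over all genes tested, threshold 0.05) across all 5 libraries. Classes, subsets, clone sizes and Pdcd1-positive cells were compared with library as a block. Code was tested on simulated data. Beside Pdcd1 and listed genes, the text names in each class the 8 genes with the largest and the 4 with the smallest difference among those past the threshold, of 1 sign in all libraries and at or above 20 CPM, and the 6 genes most like Pdcd1 across clusters, with receptor segments and unnamed transcripts left out. The gene, classes and lists were chosen with earlier results of these data known. Alternatives were DESeq2 1.42.0, no low-count filter, each library left out, doublets kept, other gates, classes from clusters, no library block and other clone sizes. Settings on clusters, on the highest cell of each sum and on clone sizes matched on depth were chosen after seeing the data. Values of 2 of the listed genes are not reported here.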

Additional observations from a re-analysis of the deposited data

How the results depend on the processing

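The libraries are numbered in accession order only, so the numbers pair no samples. No paired analysis was possible because the labels give the libraries of a group no shared number, animal or batch. The Pdcd1 differences of Foxp3-positive cells from the other classes, of both subsets from the rest of their class, and of expanded from single CD4 conventional cells kept their direction and their call in every alternative run.

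DESeq2 ended the calls of CD8 minus CD4 conventional (-0.64) and, for combination minus untreated, of CD4 conventional (1.95), follicular-gene-positive (2.42) and Foxp3-positive cells (1.0). It also ended that of granzyme-positive CD8 cells for combination minus S. chamaejasme (2.26). It gave no adjusted p for 9 other Pdcd1 differences and for 8 named genes. With no filter on low counts the Foxp3-positive call for combination minus untreated was lost (1.06). Calls were gained for Fcer1g-positive minus CD4 conventional (-1.35), for CD8 combination minus S. chamaejasme (1.0), for the CD8 minus CD4 conventional difference of the combination contrast (-1.60), and for S. chamaejasme minus untreated in CD4 conventional (1.60), follicular-gene-positive (1.95), follicular-gene-negative (1.17), granzyme-positive (-1.48) and Fcer1g-positive cells (-2.97).

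The Foxp3-positive call was also lost with combination and untreated libraries only (1.015), with doublets kept (1.01), with gates of 2 UMIs (1.24) and without the clusters with Lars2 among their leading genes (0.97). Keeping doublets ended the granzyme-positive call for combination minus S. chamaejasme (1.93), and gates of 2 UMIs ended the CD4 conventional call (1.41), gained Fcer1g-positive minus CD4 conventional (-1.69) and turned Foxp3-positive combination minus S. chamaejasme to -0.0090. No library block gave -0.84 for CD8 minus CD4 conventional. Classes from clusters turned that value to 0.33, turned Fcer1g-positive S. chamaejasme minus untreated to 0.12 and combination minus untreated to 1.84, and gained calls for combination minus S. chamaejasme in Fcer1g-positive (1.71) and CD8 cells (1.23).

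Of the settings added later, leaving out the highest cell of each sum gained Fcer1g-positive minus CD4 conventional (-2.26). The CD4 conventional cells outside Foxp3-rich clusters gained S. chamaejasme minus untreated (1.75), as did all kept cells of the Tox2-led cluster (1.69). All kept cells of the Gzmk-led cluster, set against the result in CD8 cells, gained S. chamaejasme minus untreated (-1.65) and combination minus S. chamaejasme (2.43). The CD8 cells of that cluster turned the CD8 clone-size difference to -0.23. Clones from 3 cells ended that call (0.055). Without the clusters of Lars2, CD8 cells without granzyme turned to -0.20 for S. chamaejasme minus untreated. The cause of these changes was not tested.

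Counts of genes higher and lower in Pdcd1-positive cells moved with the setting. In CD4 conventional cells they were 236 and 241 by DESeq2, 286 and 247 with no library block, and 814 and 820 when not matched on depth. In CD8 cells they were 83 and 76 with no filter, 15 and 54 by DESeq2, 6 and 8 with no library block, 68 and 69 with doublets kept, and 190 and 202 when not matched on depth. In Foxp3-positive cells they were 102 and 145 by DESeq2 and 111 and 142 with no library block. Thinned to 1000 UMIs, the mean share of positive cells was 1.5% in CD8 and 14.7% in Foxp3-positive cells. With a pseudocount of 1 CPM, r across clusters was 0.955 for Ap3b1, 0.943 for Ypel3, 0.936 for M6pr, 0.953 for Elk3, 0.928 for Slc35b1 and 0.939 for Nt5e.

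Leaving out a library can leave a group with 1 library, which is then assumed to vary like the other groups. With each library left out in turn, CD8 minus CD4 conventional ran from -1.05 to -0.68, Fcer1g-positive minus CD4 conventional from -1.85 to -0.54 and Fcer1g-positive minus CD8 from -0.80 to 0.14, turning sign without the S. chamaejasme library. The Foxp3-positive clone-size difference ran from -0.0053 to 0.42. For combination minus untreated, CD8 cells ran from -0.052 to 0.50, granzyme-positive cells from 0.31 to 1.21 and Foxp3-positive cells from 0.80 to 1.22. For S. chamaejasme minus untreated the ranges were 1.14 to 2.71 in CD4 conventional, 1.40 to 4.35 in follicular-gene-positive, 0.96 to 1.51 in follicular-gene-negative, -0.91 to -0.57 in CD8, -1.95 to -1.06 in granzyme-positive, -0.26 to 0.70 in granzyme-negative and 0.81 to 1.12 in Foxp3-positive cells. For combination minus S. chamaejasme they were 0.70 to 1.25 in CD8 and -0.19 to 0.23 in Foxp3-positive cells. The difference of the combination contrast ran from -2.51 to -1.29 for CD8 minus CD4 conventional and from -1.38 to -0.36 for CD8 minus Foxp3-positive cells. Genes higher and lower in Pdcd1-positive cells numbered 214 to 493 and 208 to 444 in CD4 conventional, 11 to 43 and 8 to 32 in CD8, and 111 to 236 and 115 to 236 in Foxp3-positive cells, with the lowest counts without either combination library in CD4 conventional and CD8 cells and without combination library 1 in Foxp3-positive cells.

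Untreated library 1 had the fewest Pdcd1 UMIs in kept cells (157) and the fewest kept cells (2244), and the S. chamaejasme library had the lowest median depth per cell.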
